A study of Mus musculus with 7 samples.

Results

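The enzymes that make and use S-adenosylmethionine in liver were followed across age by their chromatin accessibility. The set held 9 genes of methionine and one-carbon metabolism, Mat1a, Gnmt, Ahcy, Bhmt, Bhmt2, Cbs, Cth, Shmt1 and Pemt. A region of the deposited count table was assigned to a gene when it overlapped the gene body (GENCODE M21, build GRCm38) or 10 kb on either side. This gave 62 of the 55680 regions in the table, 40 of them over the gene bodies, and no region fell to more than 1 of the genes. The rule used only positions and no measured value.

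The samples were liver tissue of male C57BL/6N mice, 3 from young animals of 3 months and 4 from aged animals of 18 months, with no other allele or agent named. Nuclei were tagmented by Omni-ATAC, in which the Tn5 transposase inserts adapters into open DNA, so a read count per region measures accessibility. The 4 aged samples came from 3 animals, since separate lobules of the liver were taken from 1 animal, and the labels do not say which samples these are. They were counted as 4 samples, so p-values measure the spread between samples, part of which is within an animal.

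The liver is the main site of methionine breakdown in the body. Methionine adenosyltransferase turns methionine into S-adenosylmethionine, methyltransferases pass its methyl group on, and the remaining S-adenosylhomocysteine is split into adenosine and homocysteine. Homocysteine is either methylated back to methionine, with betaine or a folate as the donor, or drained into cysteine by transsulfuration. Folate carries the one-carbon units, most of which come from serine.

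Total counts in regions ran from 4474652 to 25461110 per sample, and the member regions took 0.195% to 0.242% of them. Values are in CPM, counts scaled to a common library total after TMM normalization, and fold changes are edgeR log2 ratios of aged over young with standard errors (SE). Adjusted p is from edgeR's quasi-likelihood test with Benjamini-Hochberg adjustment over all 55680 regions, and a region was called below 0.05. Of all regions, 1360 were more accessible in aged liver (2.44%) and 1838 were less accessible (3.3%). DESeq2, the test that the paper used, called 2760 more accessible and 1931 less accessible, so the balance of gains and losses depended on the fit. Fold changes rose with the strength of the region: the median log2 fold change was -0.42 in the weakest decile of the regions by mean log2 CPM and 0.28 in the strongest decile, where 11.7% were called higher and 0.233% lower. Because the member promoters are strong regions, results at the members' promoters are also given with offsets that level the log ratios against mean abundance.

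Of the 10 hepatocyte marker genes all had a region at a promoter, with a summed signal of 880 to 985 CPM in the young and 1079 to 1232 CPM in the aged samples, and 2 of them, Apoa1 and Apoc3, were called higher. Markers of other liver cells were weak, and none was called, although the stellate cell marker Reln was called lower with total counts in place of TMM (log2 fold change -0.76, edgeR adjusted p = 0.0319). The 5 stellate cell markers with a region summed to 29.6 to 33.5 CPM in the young and 17.7 to 26.7 CPM in the aged samples, without overlap. Their median log2 fold change was -0.36, but -0.035 with offsets on mean abundance, where 2 of the 5 were above 0. For 7 endothelial markers the sums were 84.4 to 96.4 and 67.5 to 110 CPM, and for 2 of 10 Kupffer cell and macrophage markers 7.29 to 9.16 and 3.33 to 6.87 CPM. The Kupffer cell and macrophage sums also did not overlap. The 4 of 8 cholangiocyte markers summed to 101 to 125 and 97.7 to 113 CPM, and 1 of 10 lymphocyte markers, Lck, gave 10.6 to 12.8 and 10.7 to 13.6 CPM. Krt19, Krt7, Ptprc, Cd3e and Adgre1 had no promoter region in the table. In this bulk tissue more cells of a type and more open chromatin per cell cannot be told apart, and the part of cell composition in the results was not tested.

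Every called change around the 9 genes was a gain in aged liver, and most gains lay at promoters. Of the 62 regions 6 were called more accessible in aged liver and 0 less accessible, against 2.44% and 3.3% of all regions; at an unadjusted p under 0.05 the counts were 15 and 4, against 11.9% and 12.7% of all regions. The 6 lay at Mat1a (2 regions), Cbs (2 regions), Ahcy and Pemt, and 5 of them overlapped an annotated transcription start of the gene. The median log2 fold change over the 62 regions was 0.09, against -0.04 over all regions. All 4 aged samples stood above all 3 young samples in 13 of the 62 regions and below them in 2, where 10.2% and 11.6% of all regions did so.

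These calls rested on small margins. All 6 had adjusted p values between 0.0162 and 0.0451, and none was called with offsets on mean abundance, where 250 regions of the whole table were called higher. Leaving out young replicate 1, young replicate 2, aged replicate 1 or aged replicate 3 left 0 of the 6, with 188, 446, 402 and 651 calls in the whole table in place of 3198. DESeq2 called 8 member regions higher, against 4.96% of all regions. With any 2 of the aged samples merged into 1, in all 6 combinations, 1 to 7 were called.

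Fold changes differed by the position of a region in the gene window. The 12 regions over a start of their own gene all had fold changes above 0, with a median log2 fold change of 0.39 and a range of 0.12 to 0.75, and 5 were called; of all promoter regions 61.1% were above 0 and 4.48% were called higher. With offsets on mean abundance 8 of the 12 were above 0. Among the 11 regions in the upstream flanks 8 were above 0, with a median of 0.21 and 1 call. The 11 exonic regions (median 0.00), the 17 intronic regions (median -0.04) and the 11 regions downstream of the genes (median -0.13) held no call. Over all regions outside promoters the median was -0.09, and over the 15422 promoter regions of the whole table it was 0.09. These sets are not quite alike: the former leaves out regions at the promoter of any gene. The member classes leave out only starts of the gene itself, so some of their regions lie at promoters of other genes, such as Rasd1 and Gm45609. With offsets on mean abundance the medians of the member classes came to 0.09 for promoters, 0.24 for upstream flanks, 0.01 for exons, 0.08 for introns and -0.17 for downstream flanks. Under these offsets the upstream flanks stood highest, and introns moved above 0.

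**Figure D1:**
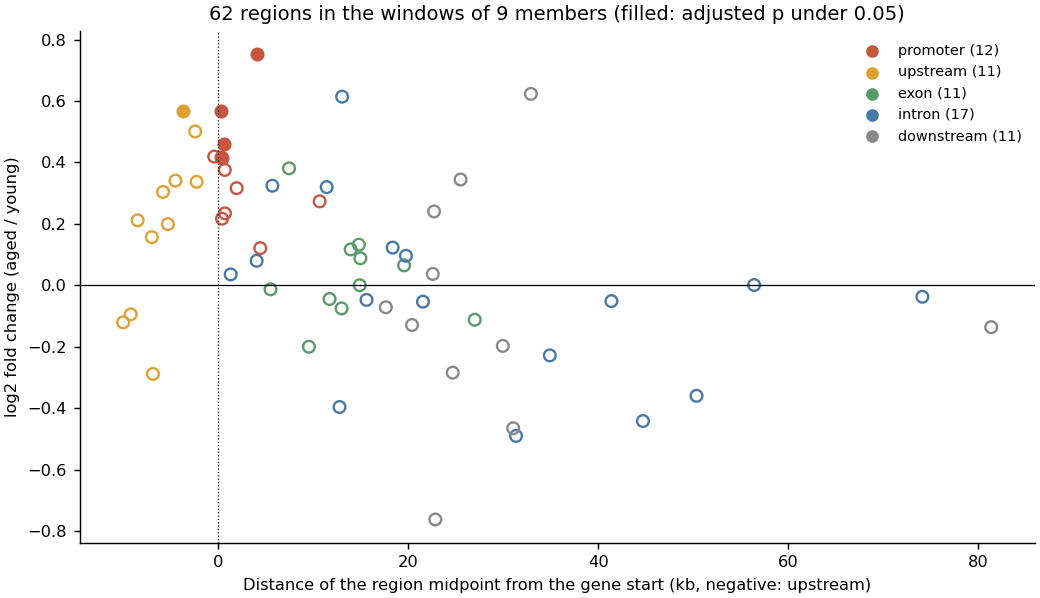
The 62 member regions by the distance of their midpoint from the gene start in kb (negative values lie upstream) and their log2 fold change of aged over young. Colours give the position class with the number of regions, and filled points have an edgeR adjusted p under 0.05; all 6 filled points lie above 0 and within 5 kb of a gene start.

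The strongest promoter region of each gene was taken as the region overlapping 200 bp around any annotated start with the highest mean log2 CPM. All 9 had fold changes above 0, as did 66.7% of the promoters of protein-coding genes, with a median log2 fold change of 0.38. Mat1a, Ahcy and Cbs were called, 3 of 9, where 5.02% of 13018 protein-coding genes had a strongest promoter region called higher and 1.49% had one called lower. In 7 of the 9 every aged sample lay above every young sample, Gnmt and Bhmt being the exceptions, against 24% of the protein-coding genes. Since 8 of the 9 belonged to the strongest decile of all regions, that decile is the nearer background: 11.7% of its regions were called higher, 93.8% had a fold change above 0, 44.7% had all aged above all young samples, and the median log2 fold change was 0.28. Of these 8 promoters 3 were called and 7 did not overlap between ages.

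**Figure D2:**
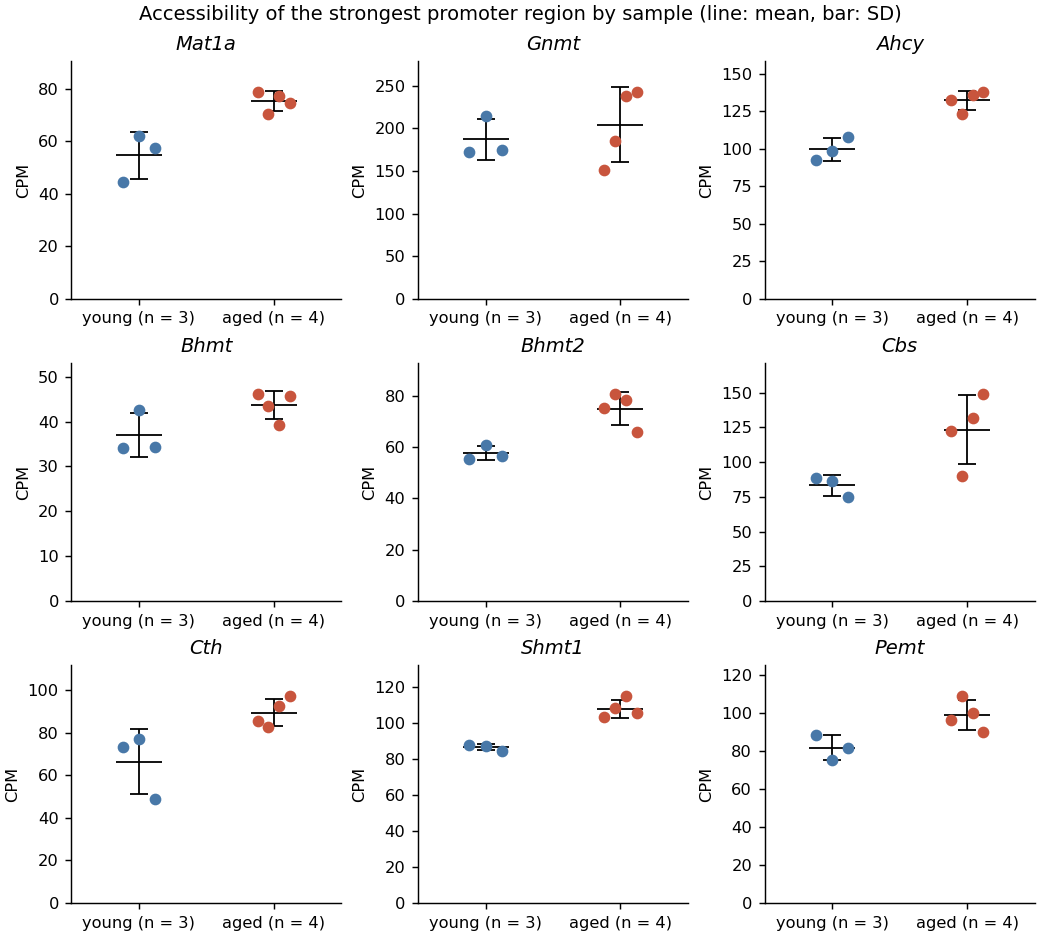
Signal of the strongest promoter region of each of the 9 genes in CPM, 1 point per sample, with the group mean as a line and the SD as a bar (3 young, 4 aged samples). The groups overlap for Gnmt and Bhmt and lie apart for the other 7 genes.

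Sequences are shown for 4 of the 6 called regions, at Ahcy, Cbs and upstream of Mat1a, with Gnmt as a promoter that was not called; those of the called regions over the starts of Mat1a and Pemt are not printed. RefSeq promoter sequences (GRCm38.p6) were on hand for 7 of the 9 genes, all but Mat1a and Cth. Shown 5′ to 3′ on the minus strand are the bases directly before the first annotated start of Ahcy (chr2:155074498-155074747) and Cbs (chr17:31637239-31637455), which were called, and of Gnmt (chr17:46729169-46729415), which was not. The last lines give bases 5′ of the inner Cbs start within the called region (chr17:31633165-31633315, minus strand) and the central 300 bases of the called region upstream of Mat1a (chr14:41101175-41101474, plus strand), both read from the GRCm38.p6 genome. Capitals mark matches on either strand to 8 letter strings: the TATA box TATAAA, the CCAAT box, the GC box GGGCGG, the E-box CACGTG, the HNF4A strings CAAAGGTCA and also CAAAGTCCA, the FOXA string TGTTTAC and the HNF1 string GTTAAT.
Ahcy upstream: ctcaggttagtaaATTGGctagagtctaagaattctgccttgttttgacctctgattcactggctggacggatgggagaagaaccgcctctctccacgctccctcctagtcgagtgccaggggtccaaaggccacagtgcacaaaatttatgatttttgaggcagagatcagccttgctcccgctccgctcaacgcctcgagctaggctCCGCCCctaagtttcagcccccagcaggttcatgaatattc
Cbs upstream: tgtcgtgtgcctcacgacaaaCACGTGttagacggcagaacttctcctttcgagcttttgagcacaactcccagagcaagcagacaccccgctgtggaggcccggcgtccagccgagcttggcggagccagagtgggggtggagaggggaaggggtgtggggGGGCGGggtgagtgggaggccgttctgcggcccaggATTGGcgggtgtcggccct
Gnmt upstream: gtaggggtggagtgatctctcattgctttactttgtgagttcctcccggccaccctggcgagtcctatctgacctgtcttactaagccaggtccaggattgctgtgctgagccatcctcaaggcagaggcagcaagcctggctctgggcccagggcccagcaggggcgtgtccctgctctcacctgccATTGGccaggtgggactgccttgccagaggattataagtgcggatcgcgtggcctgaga
Cbs inner region: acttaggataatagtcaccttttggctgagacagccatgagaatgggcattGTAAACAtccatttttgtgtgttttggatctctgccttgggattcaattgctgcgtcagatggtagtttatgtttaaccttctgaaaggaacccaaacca
Mat1a upstream region: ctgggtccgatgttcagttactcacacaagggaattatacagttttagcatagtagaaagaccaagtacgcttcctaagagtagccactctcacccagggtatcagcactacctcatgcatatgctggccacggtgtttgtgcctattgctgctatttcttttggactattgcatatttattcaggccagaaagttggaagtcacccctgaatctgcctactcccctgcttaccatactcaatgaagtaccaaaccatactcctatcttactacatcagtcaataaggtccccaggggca

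The Ahcy bases held a CCAAT box 237 bases and a GC box 41 bases before the start, both on the opposite strand. The Cbs bases held an E-box at 196 bases, a GC box at 55 bases and, on the opposite strand, a CCAAT box at 19 bases before the start. In Gnmt a CCAAT box was the only match, on the opposite strand 59 bases before the start. In windows of the same length a CCAAT box was present in 30.6% to 33.9% of all 32851 promoters of the table, a GC box in 28.0% to 32.7% and this E-box in 4.92%. The bases 5′ of the inner Cbs start held TGTTTAC on the opposite strand. Of all regions 3.13% held it on either strand in a central window of the same length. The strings were chosen with the results known.

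Mat1a encodes the liver form of methionine adenosyltransferase, the enzyme that makes S-adenosylmethionine, and lies on the plus strand at chr14:41105035-41124412. It had 10 regions, 2 of them called. The region over its start, chr14:41104150-41107000, which covers the first exons with 5′ UTR and coding sequence, measured 44.6, 61.9 and 57.4 CPM in young samples 1 to 3 and 78.7, 70.2, 77.3 and 74.7 CPM in aged samples 1 to 4. Every aged sample was above every young one, and young sample 1 was the lowest of the 7. The log2 fold change was 0.46 (SE 0.12, edgeR adjusted p = 0.0451). Levelled for mean abundance it was 0.20, with an edgeR adjusted p of 0.454.

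The change with the smallest adjusted p among the 62 regions was at an intergenic region upstream of Mat1a, chr14:41100071-41102577, whose midpoint lies at -3711 bp from the gene start. It measured 32.7, 37.0 and 36.8 CPM in the young and 50.2, 48.6, 55.3 and 56.3 CPM in the aged samples. The groups lay far apart, with the lowest aged sample 11.6 CPM above the highest young one. This was a log2 fold change of 0.57 (SE 0.11, edgeR adjusted p = 0.0162). Its central bases are the last sequence shown, and none of the 8 letter strings occurred there. The call held in 14 of 19 alternative fits, more than any other member region that was called. The abundance offsets gave 0.36 (edgeR adjusted p = 0.105), and over the 19 fits the adjusted p ran from 0.000971 to 0.105.

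Other regions of Mat1a went both ways, none of them called. The intronic region with the highest signal per kb outside the promoter, chr14:41116096-41116768, had a log2 fold change of 0.32 (SE 0.14, edgeR adjusted p = 0.184). The lowest fold change of all 62 regions lay downstream of the gene at chr14:41127252-41128491, a region singled out after its values were seen. There the young samples measured 13.2, 22.8 and 21.9 CPM and the aged samples 7.29, 15.3, 11.9 and 12.0 CPM. Aged sample 2 overlapped the young samples, and the log2 fold change was -0.76 (SE 0.24, edgeR adjusted p = 0.0763). With total counts in place of TMM it was -0.88 and was called (edgeR adjusted p = 0.0498).

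Gnmt and Pemt encode methyltransferases that consume S-adenosylmethionine, the former by methylating glycine and the latter by turning phosphatidylethanolamine into phosphatidylcholine. Gnmt, on the minus strand at chr17:46725664-46729168, had 3 regions and no call. Its strongest region, chr17:46722282-46727241, covers the 3′ part of the gene with the starts of short transcripts, and part of the neighbouring gene Pex6. It measured 172, 215 and 175 CPM in the young and 151, 186, 238 and 243 CPM in the aged samples. The groups overlapped fully, with aged sample 1 the lowest of all 7. The log2 fold change was 0.12 (SE 0.16, edgeR adjusted p = 0.682), and it turned to -0.31 with offsets on mean abundance. Leaving out 1 sample at a time moved it between 0.031 (without aged replicate 4) and 0.24 (without aged replicate 1). The region over the start of the full-length transcript, chr17:46728055-46729534, had a log2 fold change of 0.22 (SE 0.12, edgeR adjusted p = 0.30), which turned to -0.054 with these offsets, and the region upstream at chr17:46733606-46736404, which overlaps Cnpy3, one of 0.30 (SE 0.13, edgeR adjusted p = 0.167), which turned to -0.041.

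Pemt, on the minus strand at chr11:59970614-60046489, was the longest of the 9 genes and had 12 regions. The region over its gene start, chr11:60045707-60046716, had the highest signal per kb of all 62, 59.8 CPM per kb. It measured 56.6, 47.0 and 48.3 CPM in the young and 65.8, 65.7, 68.4 and 70.8 CPM in the aged samples. The aged samples all lay above the young ones, and the log2 fold change was 0.42 (SE 0.11, edgeR adjusted p = 0.0412). Under the abundance offsets it was 0.17, with an edgeR adjusted p of 0.417.

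Pemt transcripts also begin inside the gene, and the stronger of the promoter regions by total signal was the inner one, chr11:60034166-60037503. It measured 88.7, 75.4 and 81.6 CPM in the young and 96.6, 109, 100 and 90.1 CPM in the aged samples. The groups did not overlap but came within 1.43 CPM of each other. The log2 fold change of 0.27 was not called (SE 0.11, edgeR adjusted p = 0.148), and it turned to -0.029 with offsets on mean abundance. Taking the region over the gene start in place of the strongest one, a choice made after the data were seen, raised the number of genes with a called promoter from 3 to 4. Deeper in the gene the intronic region chr11:60014519-60015786, also singled out after its values were seen, was 1 of the 2 member regions where all aged samples lay below all young ones. It measured 11.2, 9.83 and 10.4 CPM in the young and 7.64, 9.02, 7.70 and 5.60 CPM in the aged samples (log2 fold change -0.49, SE 0.21, edgeR adjusted p = 0.160).

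Ahcy encodes adenosylhomocysteinase, which removes the inhibitory product of methyl transfer, and lies on the minus strand at chr2:155059310-155074497. Its promoter region, chr2:155072782-155075532, also covers the start of the antisense transcript Gm45609. It measured 92.3, 98.7 and 108 CPM in the young and 133, 124, 136 and 138 CPM in the aged samples. All aged samples were above all young ones, with a gap of 15.9 CPM. edgeR gave a log2 fold change of 0.41 (SE 0.11, adjusted p = 0.0389), and DESeq2 gave 0.45 (adjusted p = 0.00366). Levelled for mean abundance it was 0.060, with an edgeR adjusted p of 0.828. The other 7 regions of the Ahcy window lay between -0.20 and 0.16 on the log2 scale, the highest being an upstream region that also covers starts of Gm45609, chr2:155080095-155082921 (0.16, SE 0.11, edgeR adjusted p = 0.402), which turned to -0.15 with offsets on mean abundance.

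Bhmt and Bhmt2 encode the methyltransferases that remethylate homocysteine, Bhmt with betaine and Bhmt2 with S-methylmethionine as the methyl donor, and they lie 17.8 kb apart on the minus strand of chromosome 13. The Bhmt promoter region, chr13:93636322-93638229, measured 34.1, 42.7 and 34.4 CPM in the young and 46.1, 43.5, 39.2 and 45.8 CPM in the aged samples. Young sample 2 lay inside the aged range, and the log2 fold change of 0.23 was not called (SE 0.12, edgeR adjusted p = 0.258). None of the 19 alternative fits called it, and the abundance offsets gave 0.050. Without young replicate 2 it was 0.36 (edgeR adjusted p = 0.178). Upstream of Bhmt the region chr13:93639681-93640840 had all aged samples above all young ones, by 0.011 CPM at the closest (log2 fold change 0.34, SE 0.16, edgeR adjusted p = 0.216).

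The Bhmt2 promoter region, chr13:93671975-93675292, is shared with Dmgdh, a dimethylglycine dehydrogenase gene that starts in the opposite direction, so the reads of both promoters are counted together. It measured 55.4, 60.9 and 56.6 CPM in the young and 75.0, 80.6, 78.4 and 65.9 CPM in the aged samples. The groups did not overlap. Its log2 fold change of 0.38 missed the threshold (SE 0.11, edgeR adjusted p = 0.0587), and 5 of 19 alternative fits called it. The abundance offsets gave 0.12. Downstream regions of both genes named for their signal per kb, chr13:93613172-93613417 at Bhmt and chr13:93648248-93649364 at Bhmt2, overlapped between ages (log2 fold changes -0.28 and 0.34, edgeR adjusted p = 0.524 and 0.278).

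Cbs and Cth carry homocysteine into cysteine: cystathionine beta-synthase joins it to serine, and cystathionine gamma-lyase releases cysteine. Cbs lies on the minus strand at chr17:31608894-31637238. Its main promoter region, chr17:31635614-31638334, had the largest fold change of the 9 strongest promoter regions. It measured 88.8, 86.3 and 74.8 CPM in the young and 123, 90.0, 132 and 149 CPM in the aged samples. The groups did not overlap, but aged sample 2 lay only 1.25 CPM above the highest young sample. This gave a log2 fold change of 0.57 (SE 0.15, edgeR adjusted p = 0.0424). The abundance offsets gave 0.23 and an edgeR adjusted p of 0.322.

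A second start of Cbs lies inside the gene, and the region over it had the largest rise of all 62 regions. This short region, chr17:31633111-31633315, with its midpoint 4.03 kb from the gene start, covers the first bases of that transcript and intron sequence of the longer ones. It measured 6.20, 6.95 and 9.37 CPM in the young and 12.4, 11.8, 12.4 and 13.1 CPM in the aged samples. The aged samples were tightly grouped and all above the young ones, and the log2 fold change was 0.75 (SE 0.20, edgeR adjusted p = 0.0414). Here the abundance offsets gave a higher value, 0.83, with an edgeR adjusted p of 0.0539. An intronic region next to it, chr17:31630974-31632151, singled out after its values were seen, also had no overlap between ages (log2 fold change 0.32, edgeR adjusted p = 0.151).

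The Cth promoter region, chr3:157924503-157926545, is shared with 1810013D15Rik, which starts in the other direction. It measured 73.4, 77.0 and 49.0 CPM in the young and 85.4, 83.0, 92.7 and 97.2 CPM in the aged samples. All aged samples were higher, and young sample 3 lay well below the other young ones. Its log2 fold change of 0.42 was not called (SE 0.14, edgeR adjusted p = 0.0943), and it was 0.14 with offsets on mean abundance. Without young replicate 3 it was 0.26 (edgeR adjusted p = 0.179). A short upstream region with a high signal per kb, chr3:157929498-157929708, overlapped between ages (log2 fold change 0.34, SE 0.25, edgeR adjusted p = 0.434). The intronic region chr3:157911580-157913073 was the other member region with all aged samples below all young ones, at 23.9, 18.2 and 16.4 CPM in the young and 11.8, 16.1, 15.9 and 16.3 CPM in the aged samples (log2 fold change -0.40, SE 0.18, edgeR adjusted p = 0.192).

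Shmt1 encodes the cytosolic serine hydroxymethyltransferase, which loads one-carbon units from serine onto folate. Its promoter region, chr11:60807901-60811703, had the tightest young group of the 9, at 87.8, 87.1 and 84.4 CPM. The aged samples measured 103, 108, 115 and 105 CPM, all above the young ones. The log2 fold change of 0.32 was not called by edgeR (SE 0.10, adjusted p = 0.0758) and was called by DESeq2 (0.35, adjusted p = 0.0266). Levelled for mean abundance it was -0.0016. The region downstream, chr11:60779783-60781575, which lies in Smcr8, had a log2 fold change of -0.47 (SE 0.19, edgeR adjusted p = 0.147). The intronic region chr11:60795590-60796667 overlapped between ages (log2 fold change -0.048, SE 0.19, edgeR adjusted p = 0.905), and GC offsets turned its value to 0.060.

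**Figure D3:**
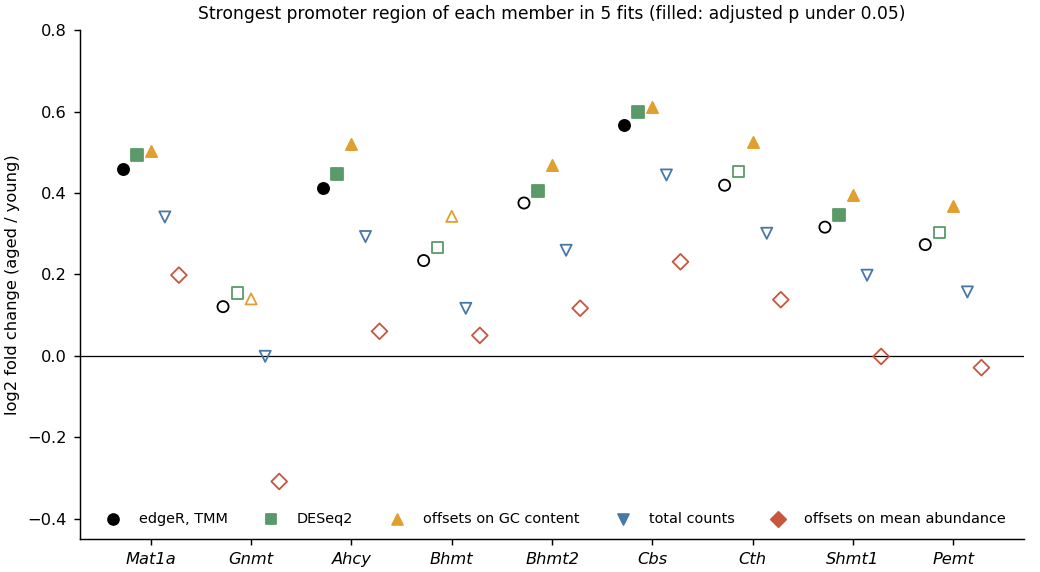
Log2 fold change of aged over young at the strongest promoter region of each gene in 5 fits, with filled symbols for an adjusted p under 0.05; 4 are edgeR fits with different scalings, and DESeq2 differs in its test as well. Offsets on mean abundance bring all 9 values down and Gnmt, Shmt1 and Pemt below 0, while offsets on GC content raise all 9.

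The number of promoters called differed between fits. Total counts in place of TMM called 0 of the 9 strongest promoters, where 1.67% of protein-coding genes had theirs called higher, and offsets on mean abundance called 0, where 0.108% did. Offsets on GC content called 7, against 16.8% of protein-coding genes. DESeq2, which changes the test as well as the scaling, called 5, against 11.9%. The median of all regions was -0.15 under total counts, 0.12 below its value under TMM, and the median of the 9 promoters moved with it, from 0.38 to 0.26. Under offsets on mean abundance the median of the 9 was 0.060, while that of all protein-coding promoters was -0.03. All 9 were above 0 under DESeq2 and GC offsets, 8 of 9 under total counts (Gnmt at -0.0013) and 6 of 9 under abundance offsets.

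The share of a gene window's counts that falls in its strongest promoter region does not change when all regions of a sample are scaled by a common factor, as with TMM or total counts. The offsets on mean abundance and GC content act on each region and were not applied to it. This share was higher on average in the aged samples in 8 of 9 windows, Gnmt being the exception. It was not computed for the windows of other genes, so no background stands beside this count. Over all regions the median log2 fold change was 0.28 in the strongest decile and -0.42 in the weakest, a trend that the share does not level. For Pemt the share was 31.9% ± 0.26 (SD, n = 3) in the young and 34.3% ± 1.19 (SD, n = 4) in the aged samples, without overlap (exact permutation over samples, two-sided, p = 0.0571, which no split of 3 against 4 can go below; 0.257 adjusted over 9 windows). The differences in means were 6.97 percentage points for Shmt1, 6.86 for Cth, 6.29 for Cbs and 4.83 for Ahcy, each with some overlap between ages. They were 3.45 for Bhmt2, 2.06 for Bhmt, 1.87 for Mat1a and -2.83 for Gnmt. Single samples moved many of these differences: without young replicate 3 they were 4.40 for Cth, 3.90 for Cbs, 0.83 for Bhmt and 0.28 for Mat1a, and without young replicate 2 they were 3.01 for Ahcy, 1.33 for Bhmt2 and 3.16 for Bhmt. Without aged replicate 1 they were 0.99 for Mat1a and -1.31 for Gnmt, and without aged replicate 2 that of Bhmt was 0.84. Mat1a reached 3.04 without young replicate 1 and 2.85 without aged replicate 4, and Bhmt reached 3.09 without aged replicate 3. Counting the gene body alone gave 8.23 for Ahcy, 4.04 for Bhmt, 4.04 for Shmt1 and -1.51 for Gnmt. The signs stayed the same in all of these. None passed the adjusted threshold, which this number of samples cannot reach. The smallest total behind any share was 513 counts for the windows and 405 for the gene bodies.

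**Figure D4:**
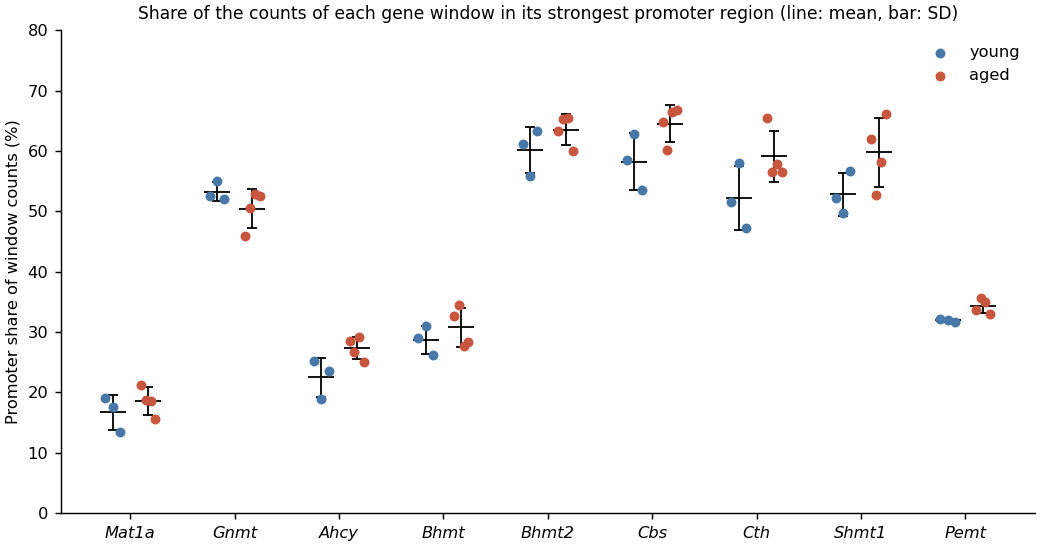
Share of the counts in each gene window (gene body and 10 kb on either side) that lies in the strongest promoter region, in percent, 1 point per sample with group mean and SD. The Pemt shares lie apart between ages, and the other 8 genes overlap.

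Summed over all regions of a window, in CPM after TMM normalization, the aged mean was higher for all 9 genes. The aged-to-young ratios ran from 1.08 for Ahcy to 1.33 for Cbs. For Bhmt2 the sums did not overlap, at 96.3 ± 10.9 CPM in the young (SD, n = 3) and 118 ± 5.68 CPM in the aged samples (SD, n = 4; exact permutation over samples, two-sided, p = 0.0571, 0.343 adjusted over 9 windows). The other 8 windows overlapped between ages. The sums were not formed under total counts or with either set of offsets, so their direction is given for TMM alone. Windows of other genes were not summed, so neither the count of 9 nor the gap at Bhmt2 has a background. Strong regions weigh most in a sum. Of the 62 regions 17 belonged to the strongest decile, where 93.8% had a fold change above 0 in the whole table.

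Among themselves the 9 promoters were compared over the 7 samples. Pearson correlations of log2 CPM between pairs of promoters had a median of 0.64 over 36 pairs, ranging from -0.078 for Gnmt and Pemt to 0.92 for Mat1a and Ahcy. Low values were not limited to pairs with Gnmt, as Bhmt and Pemt had 0.31 and Cbs and Pemt 0.40. These values are descriptions: the samples share the age difference and the libraries. The promoters of protein-coding genes whose log2 CPM followed the mean standardised profile of the 9 most closely, of 13008 compared over 7 samples, were those of Rfx5 (r = 0.992), Zfp395 (0.989), Gk (0.989), Prdm10 (0.989) and Pgd (0.988). A further 238 genes also exceeded 0.95.

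Of 64 other genes in 6 lists 61 had a promoter region, 7 were called higher in aged liver and 0 lower, where 5.02% and 1.49% of protein-coding genes were. At 57 of the 61 the fold change was above 0, with a median log2 fold change of 0.24, against 0.13 over all protein-coding promoters. Of the latter 66.7% were above 0, and of the strongest decile of all regions 93.8%. With offsets on mean abundance the median was 0.03, 34 of the 61 were above 0 and 0 genes were called, and with total counts 3 were called. All of the lists were drawn up with earlier results of these data known.

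In the list of the methionine cycle and methyl group use all 10 genes had values above 0, 6 of them also with offsets on mean abundance, and none was called. Mat2a and Mat2b, the catalytic and regulatory subunits of the methionine adenosyltransferase typical of tissues other than liver, had log2 fold changes of 0.16 (SE 0.11, edgeR adjusted p = 0.407) and 0.23 (SE 0.11, edgeR adjusted p = 0.219). Ahcyl1 and Ahcyl2, relatives of Ahcy, had 0.28 (edgeR adjusted p = 0.112) and 0.41 (edgeR adjusted p = 0.0774). Mtr, the folate-dependent methionine synthase, had 0.31 (edgeR adjusted p = 0.200). The abundance offsets turned Mat2a to -0.10 and Ahcyl1 to -0.031.

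In the folate list Mthfd2, a mitochondrial folate dehydrogenase gene whose region is shared with Mob1a, rose by 0.45 on the log2 scale (SE 0.12, edgeR adjusted p = 0.0448). Shmt2, the mitochondrial counterpart of Shmt1, had 0.32 (SE 0.10, edgeR adjusted p = 0.0848). The lowest value of the list was that of Mthfd1l, at -0.41 (edgeR adjusted p = 0.216).

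Among 9 genes of choline, betaine and glycine breakdown Gcsh, a protein of the glycine cleavage system, rose by 0.43 on the log2 scale (SE 0.11, edgeR adjusted p = 0.0373), and all 9 were above 0, or 6 of 9 with offsets on mean abundance. Of these Dmgdh has the region of the member Bhmt2, which is thus counted in both. Of 10 genes of cysteine, taurine and glutathione 8 had a region and 3 rose, at 2 distinct regions. Mpst and Tst, sulfurtransferases of cysteine sulfur, share 1 region (log2 fold change 0.52, SE 0.11, edgeR adjusted p = 0.0192), and Sqor, which oxidises hydrogen sulfide, had 0.48 (SE 0.13, edgeR adjusted p = 0.0430). The list of the CDP-choline and CDP-ethanolamine routes holds genes of phosphatidylcholine synthesis without Pemt and, with Pcyt2 and Selenoi, of the synthesis of phosphatidylethanolamine, the substrate of Pemt. Its 7 genes with a region lay between 0.20 and 0.37 with none called, and 4 of the 7 stayed above 0 with offsets on mean abundance. In methionine salvage and polyamine synthesis 1 of 9 rose, Apip (0.40, SE 0.10, edgeR adjusted p = 0.0394; region shared with Pdhx), and Mtap and Sms had values below 0, at -0.17 and -0.39. With offsets on mean abundance the log2 fold changes were 0.21 for Mthfd2, 0.12 for Gcsh, 0.20 for Mpst and Tst, 0.30 for Sqor and 0.12 for Apip, none of them called.

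**Figure D5:**
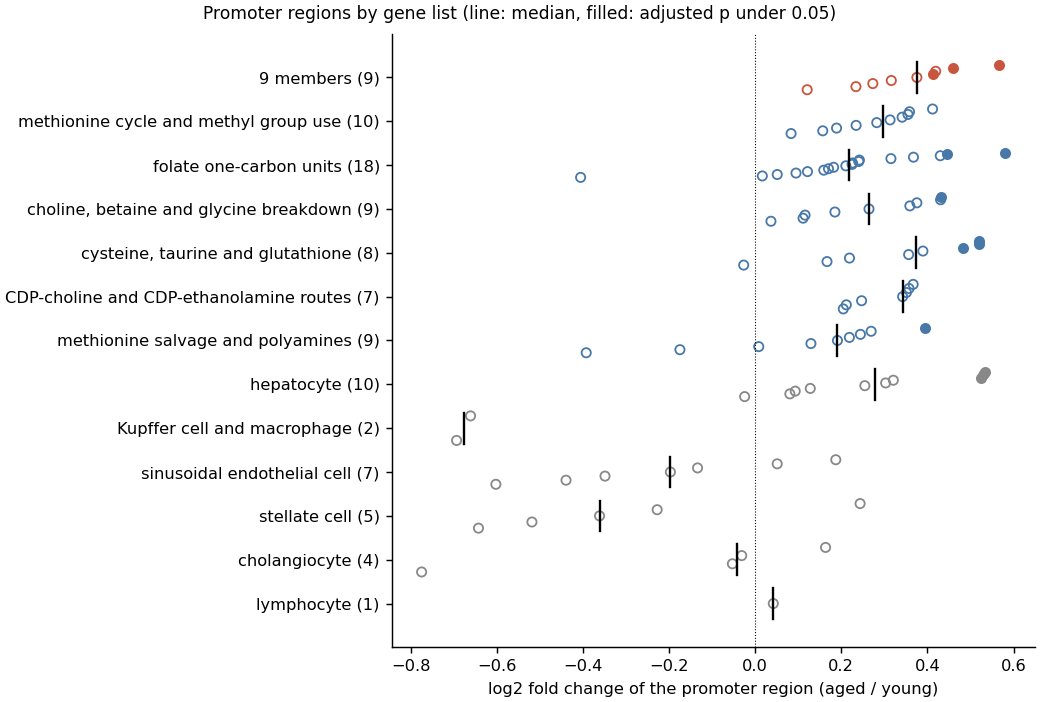
Log2 fold change of aged over young at the promoter region of each gene, by list, with the number of genes that have a region; the line is the list's median and filled points have an edgeR adjusted p under 0.05. The 9 members and the 6 pathway lists lie mostly above 0, as do the hepatocyte markers (with offsets on mean abundance, not plotted, 6 of 9, 34 of 61 and 5 of 10 are above 0), and no marker of the other cell types is called in this fit.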

How the data were processed

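Liver ATAC-seq libraries of 3 young samples and 4 aged samples, the latter from 3 animals, were analysed from the deposited table of raw counts. Per the study's methods the authors trimmed reads with cutadapt 1.13, aligned them to GRCm38 with Bowtie2 2.4.1, removed duplicate and mitochondrial reads, called peaks per library with MACS2 2.2.7, kept peaks present in at least 2 libraries and counted reads in them with featureCounts, so the deposited counts are not normalized and regions open in 1 library alone are not seen. Start coordinates are printed as in the table.

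All 55680 regions were fitted with edgeR 4.0.16 (quasi-likelihood test, TMM scaling, trended dispersion, age as the only term) under R 4.3.3, with Benjamini-Hochberg adjustment at 0.05, no filter on counts and a prior count of 2 for log2 CPM. Single values were compared by exact permutation over the 7 samples, two-sided (scipy). The fit was tested on simulated data, where with 200 of 55680 regions changed 62% of those changed by 2-fold and 94% of those changed by 3-fold were recovered. The changed regions were drawn above a minimum mean count, and no trend with strength was simulated. All called member changes were smaller than 2-fold, the largest being 0.75 on the log2 scale, so these rates do not cover them. Named regions were the promoter region of each gene, every called region, and the remaining regions with the highest signal per kb and the smallest p. In the other lists the called genes (up to 4 per list) were named, with 7 relatives of the members. Each member region was aligned to the genome with minimap2: 61 of 62 aligned, and 0 had a second place covering 80% of it at 95% identity. Peaks and counts carry no molecular identifiers, and 25461110 down to 4474652 counts per sample set the precision. Alternatives were DESeq2 1.42.0, total counts, offsets from loess fits (span 0.3) on abundance or GC content, a minimum of 10 counts, other windows, a replicate block, each sample left out and each of the 6 pairs of aged samples summed. Members and lists were chosen with earlier results of these data known. A result of the folate list is not reported here.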

Additional observations from a re-analysis of the deposited data

Results flagged for a closer look

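Among 32 values tested, 4 had 1 aged sample far from the other aged samples, judged by Dixon's ratio, the gap to the nearest sample over the whole spread of the 4, taken on log2 CPM for regions and on percent for shares; chance flags about 1 in 20 groups. At the Gnmt start region aged sample 3 stood high, at 86.8 CPM against 67.1, 69.4 and 69.6 CPM (ratio 0.858). At the region upstream of Ahcy aged sample 1 stood low, at 89.4 CPM against 102, 101 and 100 CPM (ratio 0.909). At the intronic region of Cth aged sample 1 was also low, at 11.8 CPM against 16.1, 15.9 and 16.3 CPM (ratio 0.920), and its share of counts in the Cth promoter was high, at 65.5% against 56.6%, 57.9% and 56.5% (ratio 0.844). The last of these values share counts of the same window.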

How the results depend on the processing

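The 6 member regions called higher became 1 with total counts, 0 with offsets on mean abundance, 11 with offsets on GC content, 1 with at least 10 counts in every sample, and 3, 1, 2, 2 and 1 with aged samples 1 and 2, 1 and 3, 1 and 4, 2 and 3, and 3 and 4 summed. The 0 called lower became 1 with total counts and 1 with aged samples 2 and 4 summed. The 3 members with a called promoter became 5 with DESeq2, 0 with total counts, 0 with abundance offsets, 7 with GC offsets, 0 with the minimum of 10 counts, 0, 0, 1 and 0 with aged samples 1 and 3, 1 and 4, 2 and 3, and 3 and 4 summed. The 7 other pathway genes called became 17 with DESeq2, 3 with total counts, 0 with abundance offsets, 21 with GC offsets, 3 with the minimum of 10 counts, and 1, 4, 3, 14 and 4 with aged samples 1 and 3, 1 and 4, 2 and 3, 2 and 4, and 3 and 4 summed. The median of the member promoters, 0.38, became 0.26 with total counts, 0.060 with abundance offsets and 0.47 with GC offsets. The cause of these changes was not tested. No promoter region of a member or of the other genes was called lower in any of these fits.

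Leaving out 1 sample gave 0 to 5 member regions called higher, 0 to 3 member promoters and 0 to 8 other genes, with no member region called lower. The member promoter median then ran from 0.31 to 0.41 and the median of all member regions from 0.07 to 0.19. Sums of aged pairs bear on the shared animal.

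Fold changes turned sign at the strongest promoter region of Gnmt with total counts (-0.0013) and abundance offsets (-0.31), and with abundance offsets at Shmt1 (-0.0016) and Pemt (-0.029). Of all calls 42.5% were higher in aged liver in the main fit, 58.8% with DESeq2, 15.6% with total counts, 36.4% with abundance offsets and 63.4% with GC offsets, and the number of calls moved from 3198 to 4691, 3474, 687 and 5622.

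Equal replicate numbers did not pair samples: their deviations correlated at -0.119, 0.056 and 0.030. With the replicate block 3 member regions were called higher, 1 lower, 1 member promoter and 4 other genes higher, and the member promoter median was 0.39. The promoter called there was that of Bhmt2 (edgeR adjusted p = 0.0475), and those of Mat1a, Ahcy and Cbs were not (0.0536, 0.0814 and 0.0833).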
